A study of Mus musculus with 2 samples.

Results

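The IL-1 family and inflammasome genes described here were 10 genes, Il1a, Il1b, Il1rn, Il1r2, Il18, Il18bp, Nlrp3, Casp1, Casp4 and Gsdmd, chosen by symbol from the 31053 genes of the count tables. All 10 were listed in both libraries, and all 10 passed the minimum of 20 unique molecular identifiers (UMIs, each standing for 1 captured transcript) over both libraries in microglia, macrophages, dendritic cells and granulocytes. Their UMIs were followed across the immune cells of mouse brains carrying GL261, a mouse glioma line, to find which cells and states held each transcript. The other comparison was between wild-type (WT) mice and CD169-DTR mice, in which CD169+ cells are made sensitive to diphtheria toxin.

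IL-1α and IL-1β, encoded by Il1a and Il1b, are cytokines that act on the same receptor and set off inflammatory programs in the cells that bear it. Il1rn encodes a secreted antagonist that occupies this receptor without signalling, and Il1r2 encodes a decoy receptor that binds IL-1 and passes on no signal. IL-18 drives interferon-γ release by NK and T cells, and the protein of Il18bp binds and neutralises it. The sensor NLRP3 assembles an inflammasome that activates caspase-1, which cuts pro-IL-1β, pro-IL-18 and gasdermin D; caspase-4 (mouse caspase-11) senses cytosolic lipopolysaccharide and also cuts gasdermin D, whose fragment forms pores in the plasma membrane. Transcript levels say nothing of cleavage or release, which are also regulated steps of this pathway.

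Both groups were male mice of 8 to 12 weeks on the C57BL/6 J background that received 100000 GL261 cells in the brain. The CD169-DTR mice carried 1 Siglec1 allele replaced by the human diphtheria toxin receptor, so that 1 copy of the CD169 gene was left, whereas the WT mice did not carry the receptor. Diphtheria toxin was given to both groups, at 40 ng per g on day -1 and day 4 around implantation, and the tumor-bearing hemispheres were taken on day 10. Cells of 3 mice per genotype were pooled, sorted as live CD45.2+ cells and made into 1 library each with 10x 3′ chemistry. With 1 library per genotype no difference has a replicate check, no test was run, and the intervals below are 95% intervals for counting error only.

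The WT library held 10107 cells and the CD169-DTR library 7604, with medians of 7776 and 8099.5 UMIs per cell, and 21 cell barcodes occurred in both, where 11.3 would be shared by the number of barcodes alone. Microglia made up 50.5% of 9380 immune cells in WT and 76.9% of 6992 in CD169-DTR, macrophages 24.4% and 10.5%, dendritic cells 12.1% and 3.42%, and granulocytes 1.80% and 2.77%. The CD169-DTR macrophages were more deeply sequenced, with a median of 11819.5 UMIs per cell against 7220 in WT. Siglec1 itself, which encodes CD169, was at 37.5 CPM in WT macrophages and 12.04 CPM in those of CD169-DTR, or 1.64 (1.36 to 1.93) as log2 of WT over CD169-DTR, and at 18.9 and 5.59 CPM in microglia. CPM is the gene's summed UMIs per 1000000 UMIs of the class; since 3′ counting gives 1 tag per transcript whatever its length, CPM values of different genes were set side by side.

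Granulocytes held the highest Il1b level of the 4 myeloid classes. Il1b was at 16076 CPM in WT granulocytes (15771 to 16385) and at 12081 CPM in CD169-DTR granulocytes (11855 to 12310.5), or 62.7 and 56.1 UMIs per cell. Dendritic cells followed at 975 and 1099 CPM, macrophages at 904 and 766 CPM, and microglia at 201 and 252 CPM. The order of dendritic cells over macrophages over microglia was the same in both libraries. No neighboring intervals in it overlapped, but they cover counting error only and not the spread between cells or mice. In T cells, a class not known for Il1b, the level was 8.73 CPM in CD169-DTR but 113 CPM in WT, where the 5 cells with the most held 63.4% of the 478 UMIs. After every cell was thinned to 1000 UMIs, 92.3% of WT and 93.8% of CD169-DTR granulocytes had an Il1b UMI, against 28.0% and 29.9% of macrophages, 6.22% and 6.46% of microglia and 3.53% and 0.459% of T cells.

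**Figure D1:**
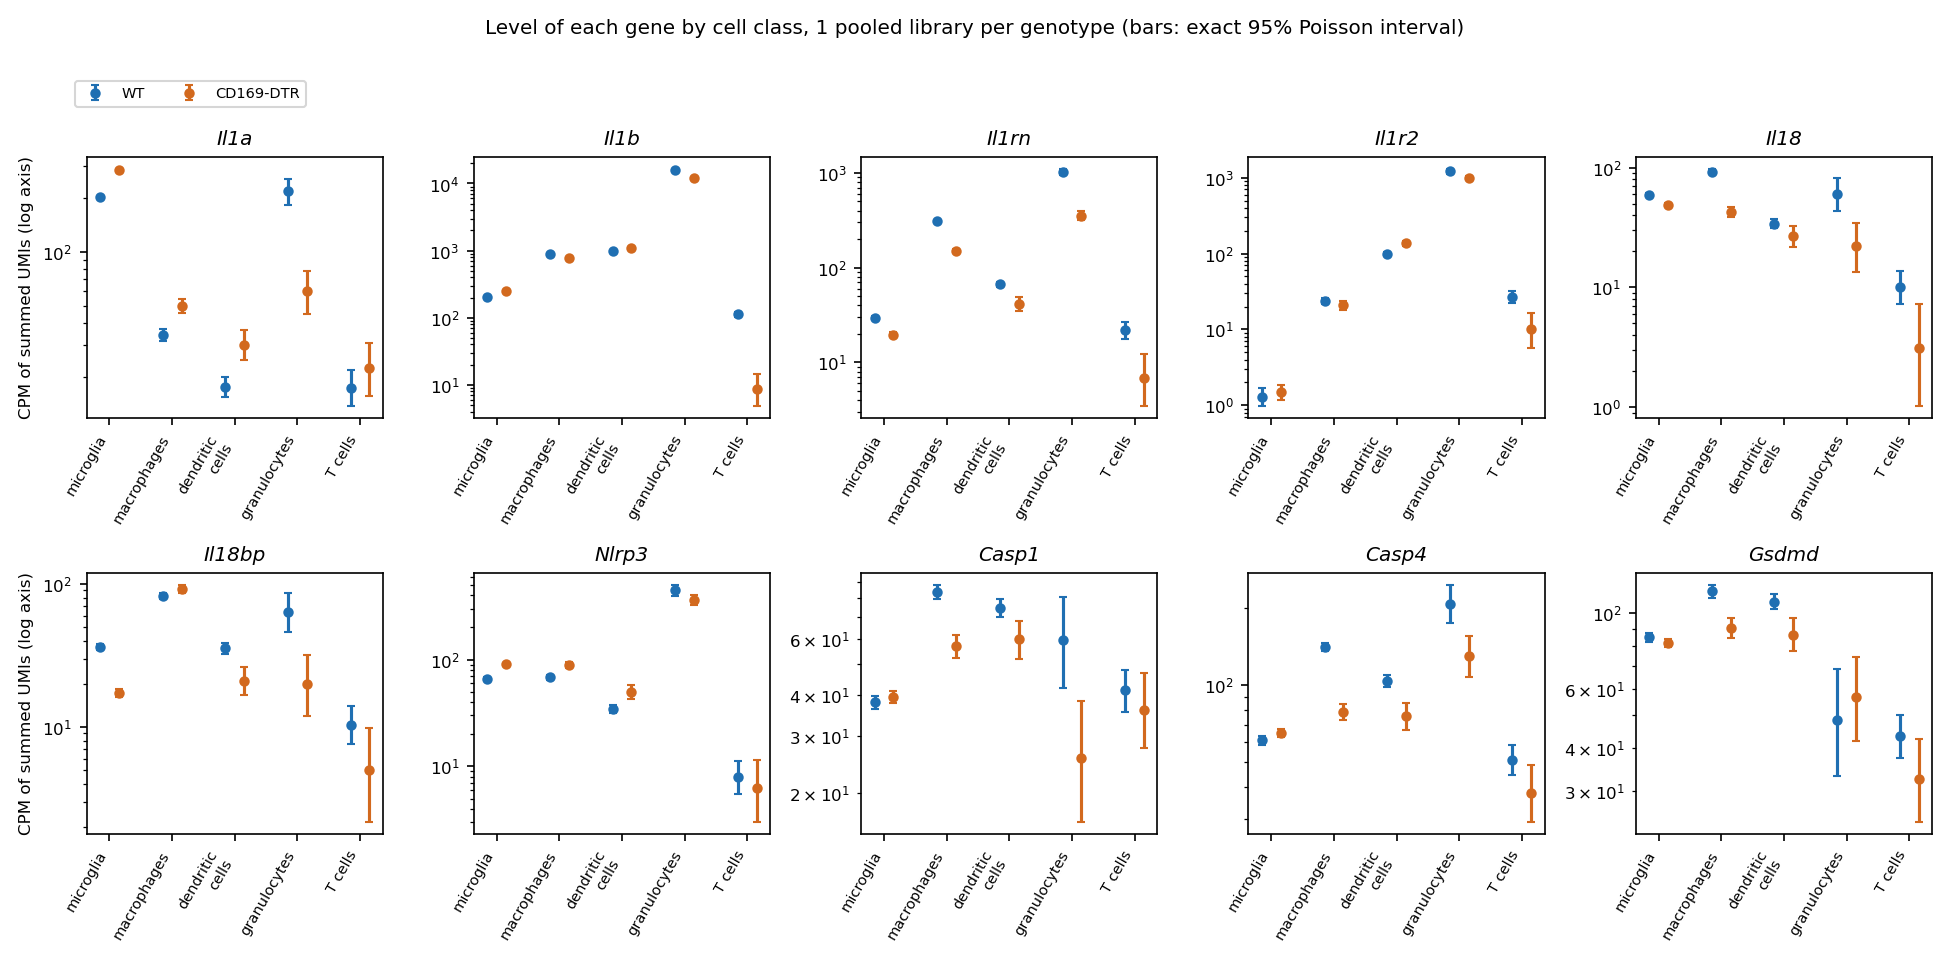
Level of each of the 10 genes in 5 cell classes, as CPM of summed UMIs on a log axis, with WT in blue and CD169-DTR in orange; points are 1 pooled library each and bars are exact 95% Poisson intervals. Il1b, Il1r2, Il1rn and Nlrp3 are highest in granulocytes in both libraries (Il1b 16076 and 12081 CPM), whereas Il1a in CD169-DTR is highest in microglia (284 CPM).

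The classes differed in size, and so did the shares of Il1b transcripts that each held. Macrophages held 33.4% of the 50214 Il1b UMIs of WT immune cells and 20.9% of the 35869 in CD169-DTR, and dendritic cells held 26.3% and 11.2%. Granulocytes held 21.1% (20.7 to 21.4) in WT from 1.80% of immune cells, and 30.3% (29.8 to 30.8) in CD169-DTR from 2.77% of them. Microglia of WT held 17.2% (16.8 to 17.5) and those of CD169-DTR 36.5% (36.0 to 37.0). When each cell was thinned to 1000 UMIs, so that every cell counted alike, the microglial shares were 10.0% and 20.4%, which kept their order.

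Within microglia the transcripts sat in few cells. The 1% of microglia with the most Il1b held 53.97% of the microglial Il1b UMIs in WT and 49.8% in CD169-DTR. Most of it lay in a state named cytokine-high immediate-early for its Ccl3, Ccl4 and immediate-early genes, which was 6.79% (6.09 to 7.55) of the microglia of WT and 9.62% (8.84 to 10.4) of those of CD169-DTR. In that state Il1b was at 1585 CPM in WT and 1553 CPM in CD169-DTR, a log2 ratio of 0.03 (-0.02 to 0.08). In homeostatic microglia it was at 28.7 and 26.8 CPM, or 0.163 and 0.167 UMIs per cell, where free RNA in the droplets was estimated to give 0.0967 and 0.0449. The members had been kept out of the features that built the clusters, but other genes of the same cells built them, so these differences between states are descriptions.

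**Figure D2:**
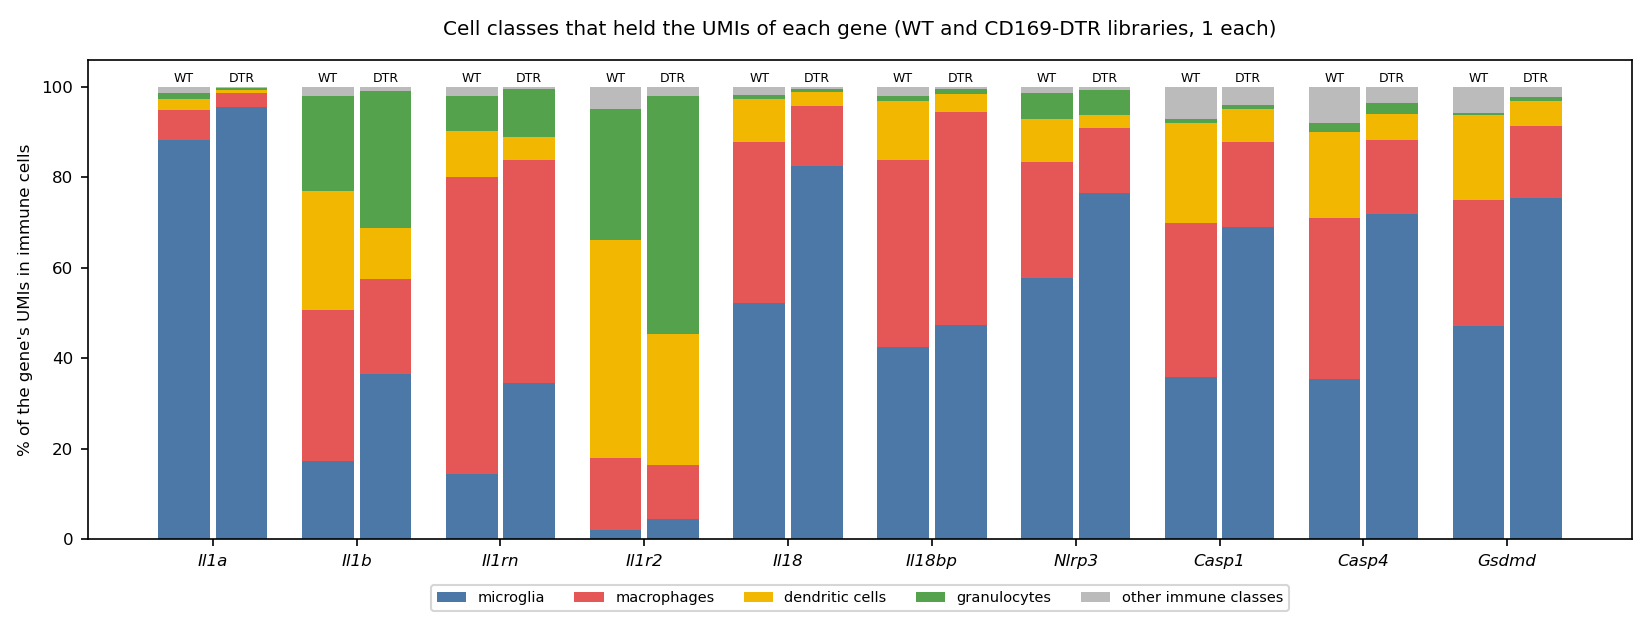
Share of each gene's UMIs in immune cells that each class held, in percent, with WT and CD169-DTR as paired stacked bars, 1 library each. Microglia hold 88.3% and 95.4% of Il1a, macrophages 65.6% and 49.3% of Il1rn, and the microglial part of Il1b is 17.2% in WT and 36.5% in CD169-DTR.

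Between the libraries Il1b differed little within a myeloid class. On the log2 scale, the WT to CD169-DTR ratio was 0.24 (0.20 to 0.28) in macrophages, and in microglia it was -0.33 (-0.37 to -0.29). It was -0.17 (-0.22 to -0.12) in dendritic cells and 0.41 (0.37 to 0.45) in granulocytes, so that none of the 4 myeloid classes reached a 2-fold difference. Outside them, T cells did, with the values above, as did basophils or mast cells, with 5 Il1b UMIs in 24 WT cells and 178 in 8 CD169-DTR cells, and choroid plexus cells, at 18.4 and 42.2 CPM. The macrophage value shrank to 0.02 when all cells were thinned to the same depth, and the microglial value to -0.08 when every cluster had the same weight in both libraries. Macrophages led by Cxcl2, Ifrd1 and Hilpda, the macrophage state highest in Il1b, had 2694 CPM in WT and 2805 CPM in CD169-DTR. In microglia without an S100a8 or S100a9 UMI, it was 0.29 (0.13 to 0.45) in the Lpl Cst7 disease-associated state and 0.33 (0.12 to 0.55) in the Spp1 Igf1 tumor-reactive state. The intervals spanned 0 in the homeostatic (0.24), S-phase (-0.06), interferon-responding (-0.03) and Ccnb2-led (-0.11) states. Mitotic microglia stood apart, with 145 CPM in WT and 319 CPM in CD169-DTR, a log2 ratio of -1.14 (-1.25 to -1.02). Without cells holding an S100a8 or S100a9 UMI, the mitotic ratio was -1.38 (-1.52 to -1.25). That cluster held 597 CPM of the granulocyte precursor genes Camp, Ngp and Ltf in CD169-DTR and 0.183 CPM in WT, genes that were chosen after their values were seen.

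Il1a was mostly a microglial transcript among the sorted immune cells. Microglia held 88.3% of its immune UMIs in WT (87.6 to 88.9) and 95.4% in CD169-DTR (95.1 to 95.7), and the cytokine-high state alone held 45.9% and 50.1%. Its level in microglia was 201 CPM in WT (197 to 205) and 284 CPM in CD169-DTR (280 to 289), a log2 ratio of -0.50 (-0.54 to -0.46). Thinned to 1000 UMIs, 11.1% of WT and 15.0% of CD169-DTR microglia had an Il1a UMI, against 0.624% and 0.459% of T cells. It was highest in the cytokine-high state, at 1219 and 1329 CPM, and was present in the others, at 84.0 and 112 CPM in homeostatic and 120 and 190 CPM in interferon-responding microglia. Outside the cytokine-high state Il1a was at 105.7 and 152 CPM. Il1b there was at 71.0 and 87.3 CPM, with the mitotic microglia that stood apart for Il1b included. Il1a was lower in WT in 7 of the 8 microglial states, the exception being the one led by Ccnb2, Cdkn3 and Cenpa at 138 and 109 CPM. Taken without the cytokine-high state, microglia gave a log2 ratio for Il1a of -0.52 (-0.58 to -0.47). In microglia there were 0.998 (0.969 to 1.03) Il1b UMIs per Il1a UMI in WT, compared with 0.886 (0.865 to 0.907) in CD169-DTR, whereas in macrophages there were 26.2 and 15.3 Il1b UMIs for each of Il1a. Macrophage Il1a was low, at 34.5 and 50.1 CPM, with a log2 ratio of -0.54 that became 0.10 after thinning, and granulocyte Il1a was at 217 CPM in WT and 59.97 CPM in CD169-DTR, from 143 and 54 UMIs. In migratory dendritic cells it was at 25.4 and 235 CPM, the latter from 15 cells.

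A list of 12 genes that respond to cell handling (Fos, Jun, Egr1, Atf3 and others) moved beside Il1a in microglia. Its median log2 ratio there was -0.41, with 1 of 12 genes higher in WT, and its summed level was 7234 CPM in WT and 9081 CPM in CD169-DTR. In the cytokine-high state the summed level was 25258 and 28094 CPM. In macrophages the same list had a median of 0.25 with 10 of 12 higher in WT. The part of handling in the microglial values of Il1a, Il1b and Nlrp3 was not tested.

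**Figure D3:**
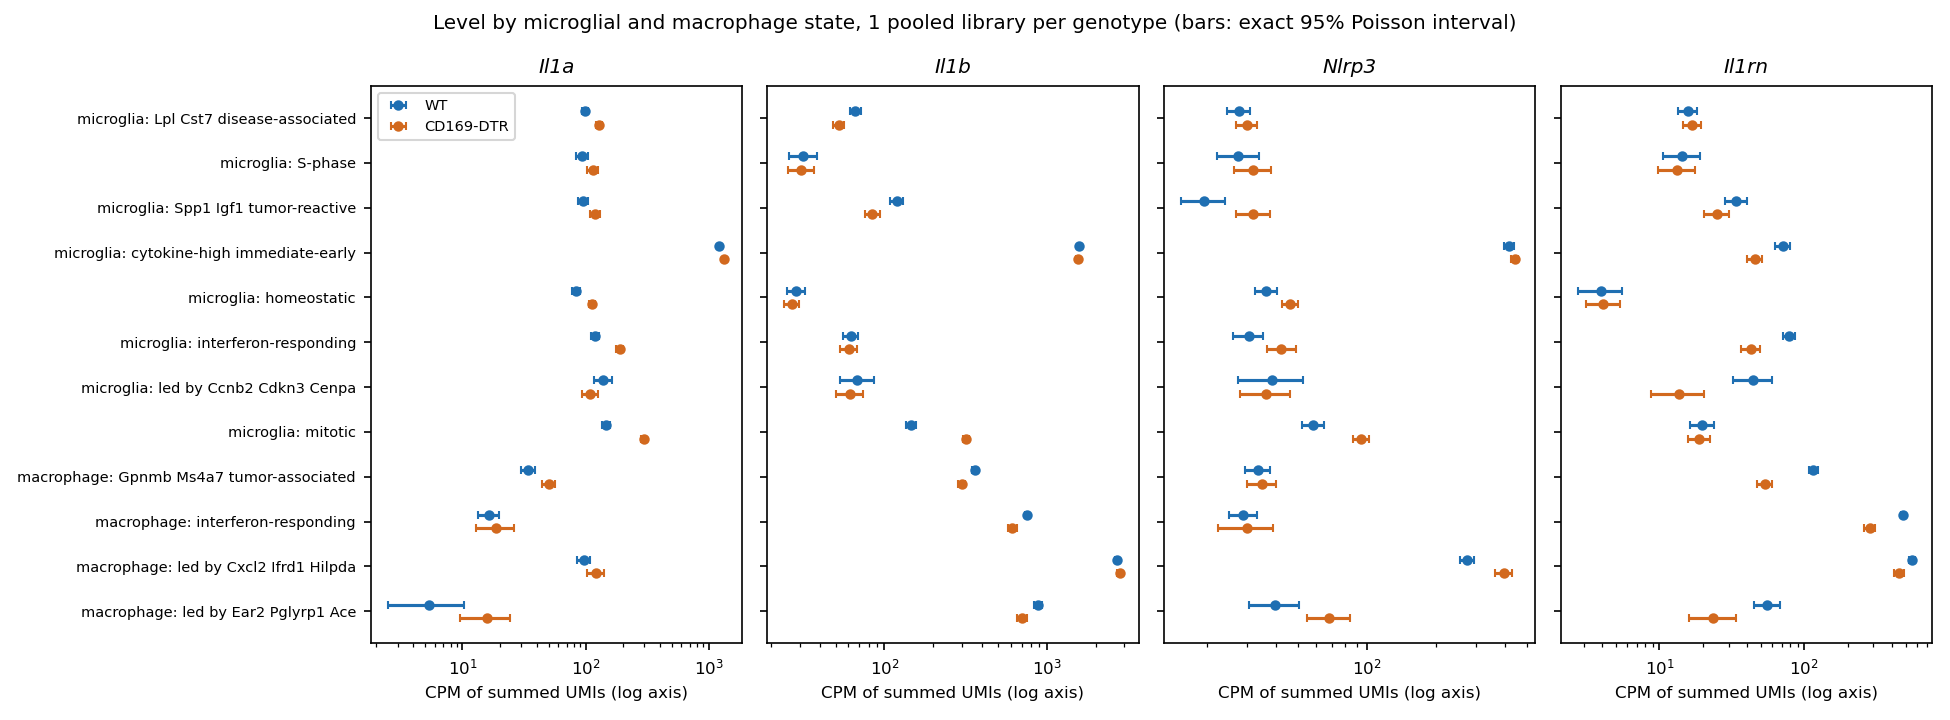
Il1a, Il1b, Nlrp3 and Il1rn by microglial and macrophage state, as CPM of summed UMIs on a log axis, WT in blue and CD169-DTR in orange, with exact 95% Poisson intervals and 1 library per genotype. The cytokine-high state leads the microglia for Il1a, Il1b and Nlrp3 (Il1b 1585 and 1553 CPM), whereas Il1rn leads in the interferon-responding and Cxcl2-led macrophages and is higher in WT in all 4 macrophage states.

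Il1rn, the receptor antagonist, was higher in WT in each of the 4 myeloid classes. In macrophages it was at 312 CPM in WT (304 to 320) and 149 CPM in CD169-DTR (141 to 156), a 2.10-fold difference and a log2 ratio of 1.07 (0.99 to 1.15). Granulocytes had 1016 and 352 CPM, a log2 ratio of 1.53 (1.33 to 1.73), which was 1.52 in granulocytes without a Camp, Ngp or Ltf UMI. Microglia had 29.4 and 19.5 CPM (0.59, 0.47 to 0.71) and dendritic cells 66.8 and 41.3 CPM (0.69, 0.44 to 0.95). Il1rn was not lower in WT in any other immune class. T cells had 21.7 and 6.86 CPM, NK cells 19.4 and 3.11 CPM, and endothelial cells 13.4 and 3.71 CPM. Free RNA was estimated to give 0.0159 Il1rn UMIs per droplet in WT and 0.00464 in CD169-DTR. Its part in the values outside the 4 myeloid classes was not tested. In microglia the class ratio lay between 0.48 and 0.80 under the other settings, free RNA subtraction among them. Among microglia without an S100a8 or S100a9 UMI, Il1rn was not higher in WT in every state. The ratio was -0.08 in the Lpl Cst7 disease-associated, -0.14 in the homeostatic and -0.17 in the mitotic state, each with an interval that spanned 0. In the S-phase, Spp1 Igf1, cytokine-high, interferon-responding and Ccnb2-led states it lay between 0.20 and 1.62. Thinned to 1000 UMIs, 19.0% of WT macrophages (17.4 to 20.6) and 9.51% of CD169-DTR macrophages (7.49 to 11.9) had an Il1rn UMI, against 0.624% and 0.459% of T cells. The macrophage value fell short of 2-fold in 4 of the 12 other ways of computing it, the lowest being 0.67 with every cluster given the same weight.

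Among macrophage states Il1rn was highest in those led by Cxcl2, Ifrd1 and Hilpda (554 and 451 CPM) and in the interferon-responding state (482 and 283 CPM), and lower in Gpnmb Ms4a7 tumor-associated macrophages (115 and 53.4 CPM). The interferon-responding state was 38.1% of WT macrophages and 24.5% of CD169-DTR macrophages and held 37.5% of all immune Il1rn UMIs in WT against 17.4% in CD169-DTR. Homeostatic microglia were low at 3.93 and 4.11 CPM. There were 5.70 Il1b UMIs for each Il1rn UMI over all immune cells in WT (5.57 to 5.83) and 12.1 in CD169-DTR (11.7 to 12.6). Within macrophages the ratio was 2.90 and 5.16, within granulocytes 15.8 and 34.3, and within microglia 6.84 and 12.9. In interferon-responding microglia of WT mice Il1rn outnumbered Il1b, with 0.786 Il1b UMIs per Il1rn UMI (0.682 to 0.905), against 1.41 (1.17 to 1.71) in CD169-DTR.

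The interferon-stimulated genes Ifit1, Ifit2, Ifit3, Isg15, Rsad2, Usp18 and Oasl1, which defined the interferon-responding states, moved in the same direction as Il1rn. All 7 were higher in WT in macrophages, with a median log2 ratio of 1.62, and likewise in granulocytes (1.55), dendritic cells (1.08) and microglia (0.71). Their summed level in macrophages was 6366 CPM in WT and 2111 CPM in CD169-DTR. Their part in the Il1rn difference was not tested.

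Promoter sequence was read for the genes that differed or that shared a pattern. RefSeq starts on GRCm38.p6 were listed for 9 of the 10 genes, at 13 starts, all but Gsdmd, and the 250 bases before each start were searched on both strands for 5 motifs. The interferon-stimulated response element, searched as GAAA, a pair of any bases and GAAA, was in 2.98% of 32851 mouse promoters of that length and in none of the 9 genes. The κB motif, searched as GGG, a pair of any bases and TTTCC (1.41% of promoters), was found before Casp4 and the third listed start of Il1rn, and the AP-1 motif, searched as TGANTCA (6.75%), before Il1a and Il1rn. The C/EBP motif, TTGCNNAA (9.56%), was found before Il18bp, and the gamma-activated site, TTCNNNGAA (7.02%), before Il1r2. Shown here are Il1a, whose pattern was microglial, Il1rn, the antagonist higher in WT in every myeloid class, and Il18bp, the member past 2-fold in microglia. Each sequence runs 5′ to 3′ and ends at the base before the start, with the motif in capitals. Il1a lies at chr2:129309973-129310222 on the minus strand with an AP-1 match, Il1rn (first of 3 starts) at chr2:24336610-24336859 on the plus strand with an AP-1 match, and Il18bp at chr7:102018233-102018482 on the minus strand with a C/EBP match.
Il1a: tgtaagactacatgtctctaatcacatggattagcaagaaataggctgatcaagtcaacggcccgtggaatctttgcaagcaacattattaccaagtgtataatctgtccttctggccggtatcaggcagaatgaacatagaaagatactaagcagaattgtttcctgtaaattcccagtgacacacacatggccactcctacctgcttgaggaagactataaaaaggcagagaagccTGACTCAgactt
Il1rn: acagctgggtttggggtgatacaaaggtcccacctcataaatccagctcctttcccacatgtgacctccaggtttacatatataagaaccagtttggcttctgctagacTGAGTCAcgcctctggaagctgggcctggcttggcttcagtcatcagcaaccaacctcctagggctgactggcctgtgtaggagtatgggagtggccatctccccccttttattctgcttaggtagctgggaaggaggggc
Il18bp: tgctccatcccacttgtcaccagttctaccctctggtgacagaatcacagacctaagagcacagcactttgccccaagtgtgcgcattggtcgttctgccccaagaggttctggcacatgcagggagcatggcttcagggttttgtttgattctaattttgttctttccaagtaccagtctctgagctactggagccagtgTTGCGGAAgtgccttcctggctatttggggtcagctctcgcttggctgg
The AP-1 letters lie 12 to 6 bases before the Il1a start and 141 to 135 before the Il1rn start, and the C/EBP letters 49 to 42 bases before the Il18bp start. A match in letters does not show that a factor binds there. The windows of the other Il1rn starts lie at 24345041-24345290 and 24345121-24345370, and 3′ counts do not show which start was used.

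The decoy receptor gene Il1r2 belonged to granulocytes and dendritic cells. It was at 1213 CPM in WT granulocytes (1130 to 1300) and 1001 CPM in CD169-DTR granulocytes (936 to 1068), and at 99.0 and 136 CPM in dendritic cells. These classes held 28.8% and 48.3% of its immune UMIs in WT, and 52.5% and 29.0% in CD169-DTR. Among dendritic cells the cDC2 were highest, at 122 and 163 CPM, a log2 ratio of -0.41 (-0.57 to -0.25), and cDC1 had 60.9 and 58.1 CPM. After thinning, 63.3% of WT and 55.7% of CD169-DTR granulocytes had an Il1r2 UMI. The share was 0.105% and 0.0744% in microglia and 0.416% and 0.459% in T cells. T cells did not serve as background for Il1r2. They held 0.237 and 0.0734 UMIs per cell, where free RNA was estimated to give 0.00309 and 0.00159. Microglia held 55 Il1r2 UMIs in 4741 WT cells and 78 in 5374 CD169-DTR cells. Il1r2 and Il1b were seen together in dendritic cells. Of the thinned WT dendritic cells with an Il1b UMI 12.5% (9.54 to 15.9) also had Il1r2, against 4.32% (2.94 to 6.11) of those without, and in CD169-DTR the shares were 18.6% (11.02 to 28.4) and 3.27% (1.07 to 7.46).

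Il18 and its binding protein Il18bp both lay mostly in microglia and macrophages but had different contrasts. These classes together held 4258 of 4848 immune Il18 UMIs in WT and 2981 of 3114 in CD169-DTR. For Il18bp they held 3081 of 3679 and 1806 of 1912. Il18 in macrophages was at 93.0 CPM in WT (88.7 to 97.5) and 42.4 CPM in CD169-DTR (38.4 to 46.7), a 2.19-fold difference and a log2 ratio of 1.13 (0.98 to 1.29). It was at 58.9 and 49.3 CPM in microglia (0.26, 0.18 to 0.34), which held 52.2% of its immune UMIs in WT and 82.4% in CD169-DTR. Interferon-responding macrophages were the highest state, at 186 and 118 CPM, and Gpnmb Ms4a7 tumor-associated macrophages were at 25.2 and 16.7 CPM. The log2 ratio lay between 0.43 and 0.65 in each of the 4 macrophage states, and for the class it fell short of 2-fold in 2 of the 12 other ways of computing it, at 0.98 as a mean over cells and 0.60 with every cluster at the same weight, while the interferon-responding state was a smaller share of macrophages in CD169-DTR. After thinning, 8.21% of WT and 3.80% of CD169-DTR macrophages had an Il18 UMI, against 0.416% of WT T cells and 0 of 218 CD169-DTR T cells, which allows a share of up to 1.38%.

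Il18bp was the member that differed most in microglia. It was at 36.3 CPM in WT (34.6 to 38.2) and 17.4 CPM in CD169-DTR (16.2 to 18.5), a 2.09-fold difference and a log2 ratio of 1.07 (0.95 to 1.19), which fell short of 2-fold in 2 of the 13 other ways of computing it, down to 0.88 with equal cluster weights. The cytokine-high state had 22.8 and 8.39 CPM, Spp1 Igf1 tumor-reactive microglia 72.3 and 28.9 CPM, and interferon-responding microglia 83.8 and 41.6 CPM, each past 2-fold. In homeostatic microglia, at 9.59 and 8.29 CPM, the interval of the ratio spanned 0 (-0.22 to 0.63). Macrophages differed from this pattern with 81.9 and 92.0 CPM, a log2 ratio of -0.17 (-0.29 to -0.05) that changed sign in 3 of the 12 other ways of computing it, up to 0.36 after thinning. Its highest macrophage state was the Gpnmb Ms4a7 tumor-associated one at 114 and 131 CPM. The macrophages led by Cxcl2, Ifrd1 and Hilpda went the other way, at 50.1 and 22.2 CPM (1.17, 0.60 to 1.78). There were 1.62 Il18 UMIs per Il18bp UMI in WT microglia (1.52 to 1.73) and 2.84 in CD169-DTR microglia (2.63 to 3.06), while in macrophages the order was reversed at 1.14 (1.06 to 1.22) and 0.461 (0.410 to 0.519).

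The receptors of these cytokines were read as part of the pathway, in microglia, macrophages, dendritic cells, granulocytes and T, NK and B cells only. Endothelial cells and the remaining classes were not compared for them. Il18r1 and Il18rap, the subunits of the IL-18 receptor, were highest in NK cells, at 142 and 131 CPM for Il18r1 and 138 and 154 CPM for Il18rap, and T cells had 107 and 114 CPM of Il18r1. Il1r1, the signalling IL-1 receptor, was highest in T cells among the classes compared, at 8.02 and 7.49 CPM from 34 and 12 UMIs. Its partner Il1rap was highest in granulocytes, at 114 CPM in WT and 51.1 CPM in CD169-DTR.

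Nlrp3, the inflammasome sensor, was high in granulocytes and cytokine-high microglia, as Il1b was. Unlike Il1b, it was lower in dendritic cells than in macrophages and microglia. It was at 446 and 362 CPM in granulocytes, 68.4 and 89.4 CPM in macrophages, 66.5 and 90.2 CPM in microglia, and 34.6 and 49.8 CPM in dendritic cells. The cytokine-high microglia had 419 and 441 CPM and held 31.1% of its immune UMIs in WT and 42.02% in CD169-DTR, from 3.43% and 7.39% of immune cells. Its log2 ratio was -0.44 (-0.51 to -0.37) in microglia, -0.39 (-0.51 to -0.26) in macrophages and -0.52 (-0.77 to -0.27) in dendritic cells, so it was lower in WT in these 3 classes, while in granulocytes it was 0.30 (0.07 to 0.53). In the cytokine-high state it was -0.08 (-0.17 to 0.02), and in macrophages led by Cxcl2, Ifrd1 and Hilpda, at 274 and 396 CPM, -0.53 (-0.69 to -0.37). Il1b and Nlrp3 occurred together: 19.0% of thinned WT microglia with an Il1b UMI had Nlrp3 (14.7 to 23.9), against 4.36% of those without (3.78 to 5.01), and the shares in CD169-DTR were 25.9% and 5.65%. For Il1a they were 38.0% and 9.36% in WT, and 43.8% and 12.97% in CD169-DTR. Casp1 showed no such pattern in WT microglia, at 4.07% (2.12 to 6.998) and 3.60% (3.07 to 4.19).

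The effectors Casp1, Casp4 and Gsdmd were spread over all immune classes and hardly differed in microglia. Gsdmd, the pore-forming substrate, was at 84.8 and 81.7 CPM in microglia, 116 and 90.6 CPM in macrophages and 108 and 86.4 CPM in dendritic cells. Casp1 was at 38.1 and 39.5 CPM in microglia (-0.05, -0.15 to 0.04) and 83.6 and 56.8 CPM in macrophages (0.56, 0.42 to 0.70). Casp4 was at 60.7 and 65.0 CPM in microglia (-0.10, -0.17 to -0.02) and 141 and 78.2 CPM in macrophages (0.85, 0.73 to 0.96). By macrophage state Casp1 was at 128 and 73.3 CPM in the interferon-responding one (0.80, 0.54 to 1.08), 73.3 and 55.3 CPM in the Cxcl2-led one (0.41, 0.02 to 0.81) and 99.99 and 84.0 CPM in the Ear2-led one (0.25, -0.11 to 0.62). In Gpnmb Ms4a7 tumor-associated macrophages it was at 41.9 and 45.1 CPM (-0.10, -0.35 to 0.15). The class ratio was 0.00 when all cells were thinned to 1000 UMIs. Casp4 was higher in WT in all 4 macrophage states, by 0.37 to 0.62 on the log2 scale. Casp4 was also high in cytokine-high microglia, at 132 and 142 CPM, against 33.4 and 42.4 CPM in homeostatic microglia, whereas Casp1 (53.0 and 46.6 against 41.5 and 39.7 CPM) and Gsdmd (77.7 and 76.9 against 86.9 and 87.5 CPM) differed less between these states. Granulocytes had 208 and 130 CPM of Casp4 but 59.2 and 25.5 CPM of Casp1 and 48.6 and 56.6 CPM of Gsdmd. T cells also held Casp1 (41.5 and 36.2 CPM), Casp4 (50.9 and 38.1 CPM) and Gsdmd (43.4 and 32.4 CPM), so T cells did not serve as background for them. Casp1 and Casp4 are neighbors on chromosome 9, at 5298517 to 5307265 and 5308828 to 5336783 on GRCm38, and are related in sequence, so reads that fit both could not be told apart here.

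**Figure D4:**
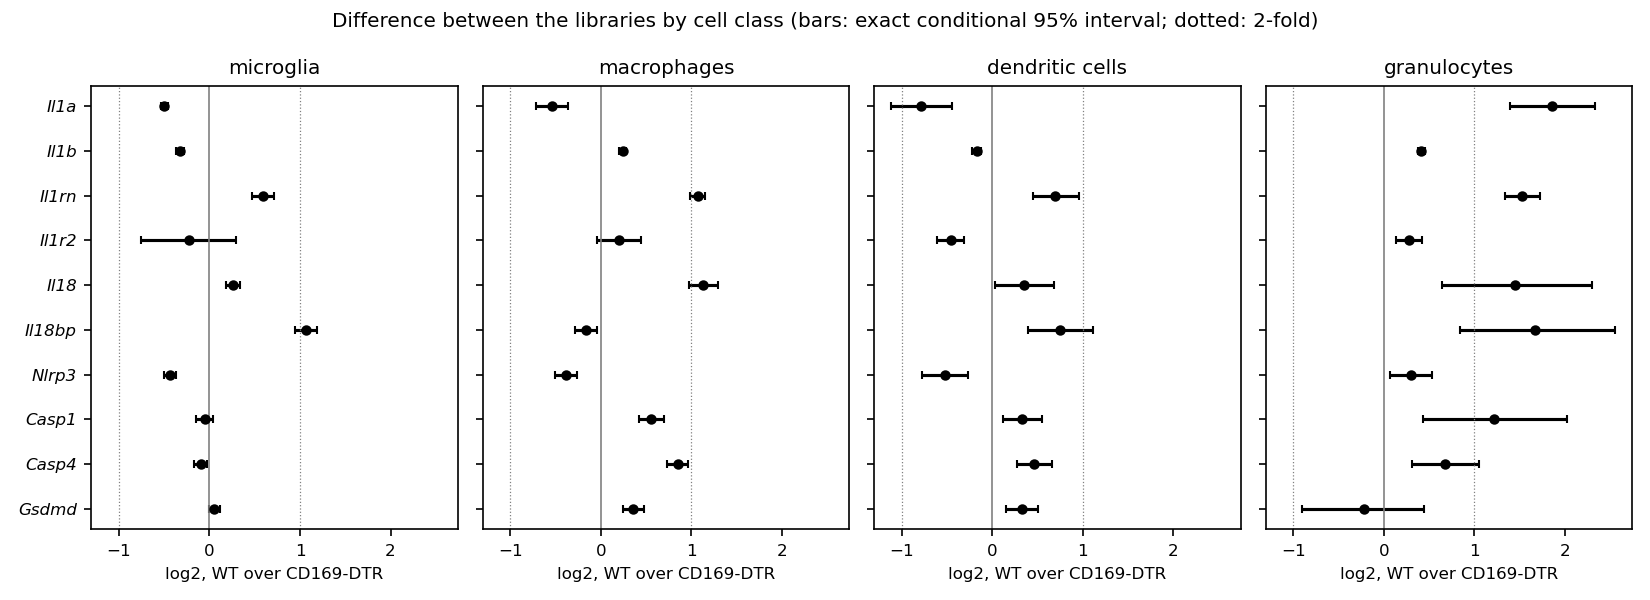
WT level over CD169-DTR level on the log2 scale for each gene in microglia, macrophages, dendritic cells and granulocytes, with exact conditional 95% intervals for counting error and dotted lines at 2-fold; values above 0 are higher in WT. Il1rn lies above 0 in all 4 classes (0.59, 1.07, 0.69 and 1.53), whereas Il1a lies below 0 in the first 3 and at 1.86 in granulocytes.

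A difference of 2-fold or more with 20 or more UMIs was reached by 2 of 10 members in macrophages, Il1rn and Il18, both higher in WT, where 5.32% of all 11762 genes passed the same rule 3.6% with WT higher and 1.72% with CD169-DTR higher. In microglia it was reached by 1 of 10, Il18bp, against 2.9% of 13739 genes, 1.45% with WT higher and 1.45% with CD169-DTR higher. In dendritic cells it was reached by none of 10, against 6.4% of 11114 genes, 3.42% with WT higher and 2.98% with CD169-DTR higher. In granulocytes it was reached by 5 of 10, Il1a, Il1rn, Il18, Il18bp and Casp1, all higher in WT, against 4.65% of 5697 genes with WT higher, 7.35% with CD169-DTR higher and 12% in either direction, but Il18, Il18bp and Casp1 rested on 40, 42 and 39 UMIs in WT. The median log2 ratio of the members was 0.30 in macrophages against -0.05 for all genes tested, -0.07 against -0.04 in microglia, 0.32 against -0.03 in dendritic cells and 0.95 against -0.13 in granulocytes. The Casp1 difference in granulocytes fell short of 2-fold in 3 of the 13 other ways of computing it, down to 0.20 after thinning. Granulocytes of the libraries also differed in maturity genes, with 4434 CPM of Camp, Ngp and Ltf in WT and 11994 CPM in CD169-DTR, and in the summed granulocyte markers, at 63867 and 118975 CPM. In granulocytes without a Camp, Ngp or Ltf UMI, 150 in WT and 161 in CD169-DTR, the 5 ratios lay between 1.07 and 1.93.

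Of 48 other genes of the pathway in the table, 39 passed the minimum in macrophages and 1 was 2-fold or more apart, Serpinb9 at 5.77 and 2.45 CPM. In microglia 43 passed and 5 did. Mefv, which encodes pyrin, was at 2.05 and 0.749 CPM and Il18r1 at 0.372 and 0.0960 CPM, both higher in WT. The other 3 were higher in CD169-DTR, namely Serpinb1a at 0.233 and 0.749 CPM and the neutrophil proteases Elane and Ctsg, with 0 UMIs in WT and 88 and 64 in CD169-DTR. Their levels were 1.69 CPM or lower, and the granulocyte precursor genes named above were at 80.8 CPM in CD169-DTR microglia and 0.303 CPM in WT.

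Over all immune cells Il1a was at 116 CPM in WT and 223 CPM in CD169-DTR, a log2 ratio of -0.94, and Il1rn at 104 and 42.4 CPM, a ratio of 1.29. When the mix of the 21 classes and states was held the same in both libraries, these ratios were -0.32 and 0.73, and when the levels were held the same and the mix was left to differ they were -0.61 and 0.56. For Nlrp3 the ratio of -0.59 became -0.26 and -0.32, and for Il18bp 0.66 became 0.44 and 0.21. For Il18, 0.36 became 0.33 with the mix held and 0.03 with the levels held. Il1b, at 594 and 515 CPM, had a ratio of 0.20 with both left to differ, 0.08 with the mix held and 0.12 with the levels held. The mix is a property of 1 pool of 3 mice per genotype, and animal and genotype cannot be told apart in it.

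Macrophages with a Siglec1 UMI held less Il1b than those without. In WT, 527 macrophages had a Siglec1 UMI and 1762 had none, with medians of 7458 and 7126 UMIs. Thinned to 1000 UMIs, those with a Siglec1 UMI had 723 CPM of Il1b and the others 901 CPM, a log2 ratio of -0.32 (-0.48 to -0.16). Il1rn was at 226 and 325 CPM (-0.52, -0.82 to -0.24) and Nlrp3 at 39.8 and 65.8 CPM (-0.72, -1.47 to -0.05), whereas the intervals of the other 7 members spanned 0. In CD169-DTR 95 macrophages had a Siglec1 UMI and 641 had none, with medians of 16487 and 11356 UMIs, and Il1b was at 484 and 902 CPM (-0.90, -1.36 to -0.46). There the interval of Il1rn spanned 0 (-0.76, -1.93 to 0.22), and Nlrp3, at 105 and 88.9 CPM, had the other sign with an interval that also spanned 0 (0.24, -0.89 to 1.23), as did those of the remaining 7 members. Microglia split and thinned the same way had an Il1b log2 ratio of -1.62 (-2.47 to -0.90) in CD169-DTR. In WT microglia it was -0.25, with an interval that spanned 0 (-0.60 to 0.08). The split was made over the whole class and not within states, which differ in Il1b. Absence of a Siglec1 UMI does not show absence of the protein.

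Il1a and Il1b lie side by side on chromosome 2, at 129299610 to 129309972 and 129364570 to 129371139 on GRCm38, 1.76 and 1.70 Mb from Siglec1, the targeted locus, and Il1rn lies 107 Mb from it. Of 160 listed genes within 5 Mb of Siglec1, 86 passed the minimum in macrophages, and 4 of them were 2-fold or more higher in WT and 2 in CD169-DTR, where 5.32% of all genes were apart in either direction. In microglia 92 passed, with 0 and 3 (2.9% of all genes), in dendritic cells 80 passed, with 2 and 4 (6.4%), and in granulocytes 39 passed, with 3 and 5 (12%), Il1a being among the 3. Whether the strain around the targeted allele differed from that of the WT mice was not tested.

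Across 37 groups of at least 50 cells (a class or state in 1 library), the genes whose levels followed each member most closely were ranked over 11736 genes by Pearson's r of log2(CPM + 10), as a description, since the groups share libraries. Il1b was followed most closely by Jdp2 (r = 0.94), Mcl1 (0.93) and Slc7a11 (0.91), and Il1a by Jmjd1c, Rcan1 and the chemokine gene Ccl4 (0.86 to 0.87). Nlrp3 was followed by Rabgef1, Nfe2l2 and Rab20 (0.89 to 0.90), Il1r2 by Aqp9, Rab11fip1 and Antxr2 (0.89 to 0.91), and Il1rn by Cstb, Thbs1 and Slc7a11 (0.88 to 0.89). For Il18 the genes were Fcgr1, Sppl2a and Parp12 (0.86 to 0.87), and for Il18bp Amdhd2, Cfb and Mmp14 (0.79 to 0.82). Casp1 was followed by Gm13373, Mcub and Tppp3 (0.79 to 0.80), Casp4 by Rnf34, Mapk6 and Ehd1 (0.78 to 0.80), and Gsdmd by Vwa5a, Synj1 and Ehbp1l1 (0.79 to 0.82). Among the members themselves the closest pairs were Il1rn with Casp4 (0.81) and Il1b with Il1r2 (0.80), and the farthest was Il1a with Casp1 (-0.25).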

How the data were processed

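The deposited files hold UMI counts per gene and barcode for every barcode, with no cell calls. Per the labels and the study's methods the authors made these counts with Cell Ranger (version 3.1.0 in the file headers) on mm10. Their methods used Seurat version 3 and left out barcodes with under 200 counts or over 17% mt- UMIs. Here barcodes with 1000 or more UMIs and at most 17% mt- UMIs were kept, which removed 249 WT and 218 CD169-DTR barcodes for mt- UMIs. Cells were integrated and clustered with Seurat 5.3.0 (2000 features, 50 dimensions for integration, 30 for clustering, resolution 1), with the members and other pathway genes kept out of the features. Clusters were named from marker genes, needing 3 detected markers. Doublets were not removed in the main analysis, since Scrublet's automatic threshold marked 2.75% of WT and 0.0132% of CD169-DTR cells and so did not work for the latter.

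UMIs were summed per library and class and given as CPM with exact Poisson intervals; shares have exact Clopper-Pearson intervals and log2 ratios exact conditional ones, with Scipy 1.17.1. Intervals cover counting error only. Positions come from GENCODE M21 on GRCm38, the build of mm10, in which 31011 of 31053 gene IDs were found. Free RNA was estimated from 6 microglial markers in T, NK and B cells, leaving out the 10% with the most, at 159 UMIs per droplet in WT and 94.3 in CD169-DTR. The named genes were the 10 members, pathway genes past 2-fold, the receptors of IL-1 and IL-18 and the 3 genes most alike to each member. The members, the lists and the rules were chosen with earlier results of these data known. Alternatives were other cell and gene minimums, an mt- limit of 10%, resolution 0.5, no integration, removal of high doublet scores, free RNA subtraction, median-ratio scaling, means over cells, equal cluster weights, removal of the richest cell, thinning, and removal of cells with UMIs of another class. The computation was tested on simulated data with independent Poisson counts per gene. That simulation did not cover UMIs gathered in few cells, so it does not test the intervals for such genes.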

Additional observations from a re-analysis of the deposited data

Results flagged for a closer look

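The main comparisons did not use cells outside the immune classes, though Il1b in choroid plexus cells and Il1rn in endothelial cells were given above. Transcripts of 2 members appeared in such cells at levels above T cells and above the free RNA estimate in both libraries. Il18bp was at 35.7 CPM in WT endothelial cells (30.5 to 41.6, 402 cells) and 26.6 CPM in CD169-DTR endothelial cells (21.3 to 32.8, 278 cells), against 10.4 and 4.99 CPM in T cells. Il18 was at 18.7 CPM in WT choroid plexus cells (14.3 to 24.2, 155 cells) and 16.5 CPM in those of CD169-DTR (12.3 to 21.7, 173 cells), against 10.1 and 3.12 CPM in T cells. These cells passed a sort for CD45.2, and doublets with immune cells were not tested as their source.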

How the results depend on the processing

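No paired analysis was possible because each genotype has 1 library. The main comparisons gave 69 values under other settings. Of these, 44 stayed within the counting interval of the main value or within 1.5 times the main count, and 25 moved. Reversal was scored only for main ratios of 2-fold or more, which those of Il1b were not, so it could not occur here. The Il1b ratio kept its sign in all 12 alternatives in macrophages and in all 13 in microglia. For Il1b in macrophages (0.24) the log2 ratio was 0.29 with median-ratio scaling and without the cell richest in Il1b, 0.13 as a mean over cells, 0.12 with equal cluster weights, 0.021 after thinning and 0.052 without cells holding UMIs of another class. For Il1b in microglia (-0.33) it was -0.41 without the 8% of cells with the highest Scrublet score, -0.37 after free RNA was subtracted, -0.28 with median-ratio scaling, -0.078 with equal cluster weights, -0.25 after thinning and -0.43 without cells holding UMIs of another class. The count of members 2-fold apart in macrophages (2) was 0 as a mean over cells and with equal cluster weights, and 1 after thinning and without cells holding UMIs of another class; in microglia (1) it was 0 as a mean over cells and with equal cluster weights. The microglial share of Il1b UMIs in WT (17.2%) was 16.6% after free RNA was subtracted, 16.7% without the richest cell, 10.0% after thinning and 15.8% without cells holding UMIs of another class. In CD169-DTR (36.5%) it was 37.5% without integration, 20.4% after thinning and 37.5% without cells holding UMIs of another class. Of 475 values of single members, 421 stayed within the interval and none reversed a 2-fold difference. Granulocytes without precursor UMIs and microglia outside the cytokine-high state were added after the data were seen. Depth limits the granulocyte values of Il18, Il18bp and Casp1, which rested on 18 to 42 UMIs a library.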
